A study of Gallus gallus with 6 samples.

Results

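The respiratory chain genes were followed in sorted chick head ectoderm cells with and without added Sox8. The set holds structural subunits of complexes I to IV and of ATP synthase, called complex V here, with the assembly factors that carry the same name stems. Subunits with no row under these names are not in it. Members were taken by gene name: the NDUF, UQCR, COX4 to COX8 and ATP5 families, SDHA to SDHD, and the protein genes of the mitochondrial genome. This gave 87 of the 24356 genes in the count table, 13 of them encoded in the mitochondrial genome and 74 in the nucleus. Complex I had 7 mitochondrial and 39 nuclear members, complex II had 4 nuclear members, complex III had 1 and 8, complex IV had 3 and 10, and ATP synthase had 2 and 13.

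The respiratory chain passes electrons from NADH and succinate to oxygen and pumps protons out of the mitochondrial matrix, and ATP synthase uses the returning protons to make ATP. Complexes I, III and IV and ATP synthase are built from subunits of both genomes, whereas succinate dehydrogenase, which is complex II, is wholly nuclear. The mitochondrial messengers are cut from long transcripts that cover most of that genome, so their single levels depend on cutting and decay as well as on transcription.

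Electroporation was done in chick embryos of the head fold stages, which were then cultured at 38 °C for 16 to 24 hours. Cells positive for both mCherry and EGFP were sorted from heads whose own otic placode had been taken out. Sox8OE cells carried pCES-Sox8-mCherry with pTK-Lmx1aE1-EGFP, a reporter driven by an enhancer of the otic gene LMX1A. Control cells carried pCES-mCherry and pCES-EGFP, which need no such enhancer, so the added Sox8 and the selection for reporter activity cannot be told apart. Each group had 3 samples, given as biological replicates in the study's methods, and the question for these genes was whether their messengers differed between the groups.

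Total counts per library were 26326573 to 46586658, and 14085 to 15161 genes had at least 10 counts. All 87 respiratory chain genes could be tested, and their lowest count in any library was 80, at COX5B, so depth set no limit on detection. SOX8 itself had 854, 1685 and 968 normalised counts in the Control libraries and 8554, 9889 and 9138 in the Sox8OE libraries, which may include reads from the plasmid. Below, values per library follow replicates 1, 2 and 3, Control first. Normalised counts are raw counts divided by the DESeq2 size factor, and they do not compare the levels of different genes, because gene length was not taken out.

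Only 2 of the 87 respiratory chain genes passed the test at an adjusted p under 0.05, and both were higher in Sox8OE cells: ND5, a mitochondrially encoded proton-pumping subunit of complex I, and ATP5F1B, the nuclear gene for the catalytic beta subunit of ATP synthase. Both also passed the study's rule of an absolute log2 fold change over 1.5. Among all 16032 genes tested with DESeq2, 3.94% were higher and 1.3% were lower at that adjusted p, and 4.28% passed both thresholds. No member was called lower in this fit, which has no term for the replicate number. With the replicate number as a block 9 were higher and 10 lower, where 8.25% and 10.3% of all genes were, and the blocked value is given beside each gene below whose call it changed. No label states that samples of the same number were paired, so the blocked values are an alternative only. The block was run because samples of the same number correlated in these data, so its further calls are no separate support. The edgeR quasi-likelihood test and limma voom called none of the 87 genes, beside 0.276% and 0.222% of all genes. At an unadjusted p under 0.05 there were 11 members, 7 mitochondrial genes that were all higher and 4 nuclear genes, of which SDHA, COX7A2L and ATP5A1Z were lower. These 11 were 12.6% of the members, beside 21.8% of all genes tested. The 2 calls made up 2.30% of the members, beside 5.24% of all genes tested.

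The Sox8OE libraries differed among themselves at these genes. Sox8OE replicate 1 lay within the range of the 3 Control libraries at 71 of the 87 genes, or 81.6%, against 50.3% of all genes tested. Sox8OE replicate 3 did so at 32 genes (36.8%, against 24.6% of all genes) and Sox8OE replicate 2 at 12 (13.8%, against 21.3%). Sox8OE replicate 2 was the highest of the 6 libraries at 40 of the 87 genes and the lowest at 27. Over the 16032 genes tested, it was the highest at 4604 and the lowest at 4159. The values below are for this reason given for each library. The main counts are also given without Sox8OE replicate 1, the library nearest the Controls at these genes. Because that library was singled out by its values at these genes, more calls and larger fold changes without it are built into the choice. Leaving out Sox8OE replicate 2 or 3 instead gave 0 and 1 calls among the 87 genes, beside 1.92% and 1.97% of all genes tested. For the lists further below, only the omission of Sox8OE replicate 1 was counted.

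ND5 had normalised counts of 29100, 35063 and 24728 in Control and 34644, 209362 and 89441 in Sox8OE. Sox8OE replicate 1 fell inside the Control range, while replicates 2 and 3 were 7.07 and 3.02 times the Control mean, so the groups overlapped. The means were 29630 ± 5188 and 111149 ± 89359 (SD, n = 3), which gave a log2 fold change of 1.91 (SE 0.56, DESeq2 adjusted p 0.021). The call was lost when Control replicate 1, Control replicate 3 or Sox8OE replicate 2 was left out, with DESeq2 adjusted p of 0.11, 0.14 and 0.29. Calls were fewer at all genes in those fits, 1.57%, 1.73% and 1.92% of genes tested, beside 5.24% with all samples.

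The other complex I genes of the mitochondrial genome, all core subunits of the membrane arm, were not called without the block, but most had raised values in the same libraries. ND4 had 61141, 65250 and 47870 in Control and 63741, 274254 and 124852 in Sox8OE. MT-ND2 had 58054, 61084 and 47302 against 62028, 216857 and 103774, and ND1 had 99539, 110760 and 78121 against 110086, 294845 and 166102. MT-ND2 alone among the 7 had all Sox8OE libraries above all Control libraries, although Sox8OE replicate 1 exceeded the highest Control by little. Log2 fold changes were 1.41 ± 0.51 for ND4, 1.20 ± 0.47 for MT-ND2 and 0.99 ± 0.42 for ND1 (SE), with DESeq2 adjusted p of 0.075, 0.108 and 0.149. With the replicate block all 3 were called higher (1.18, 1.02 and 0.89, adjusted p 0.015, 0.028 and 0.041).

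The small genes of the same complex were less uniform. ND6 had 2354, 4484 and 2480 in Control against 4441, 16433 and 4941 in Sox8OE (log2 fold change 1.47 ± 0.55, DESeq2 adjusted p 0.089, and 1.26 with adjusted p 0.0019 under the replicate block). It is the only protein gene on the opposite strand of this genome, and the strand setting of the counting is not given in the sources used here, so reads from the facing strand could be included. ND4L had 3503, 5316 and 2938 against 4141, 12420 and 5175, and it overlaps ND4, so its count depends on how shared reads were treated. ND3 had 10748, 13254 and 8627 against 11940, 13904 and 8243, a log2 fold change of 0.06 ± 0.35, and here Sox8OE replicate 3 was the lowest of the 6 libraries.

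CYTB, the mitochondrially encoded subunit of complex III that carries its quinone sites, had 110542, 113631 and 78945 in Control and 121207, 297719 and 185652 in Sox8OE. All 3 Sox8OE libraries were above the highest Control library. CYTB did not pass the test (log2 fold change 0.996 ± 0.406, SE, DESeq2 adjusted p 0.127), but it did with the replicate block (0.92, adjusted p 0.034). ATP6, the proton channel subunit of ATP synthase, showed the same order with 109271, 123268 and 91573 against 140543, 346142 and 165141 (1.01 ± 0.42, adjusted p 0.133). Its neighbour ATP8, whose reading frame overlaps that of ATP6, had 6853, 11746 and 6274 against 11046, 22824 and 9478, and its groups overlapped. With the block, ATP6 and ATP8 were both called higher (0.90 and 0.75, DESeq2 adjusted p 0.030 and 0.049). Of the 87 members 3 had all Sox8OE libraries above all Control libraries (MT-ND2, ATP6 and CYTB), whereas 10.1% of all genes tested did.

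The mitochondrial genes of complex IV, which hold its catalytic core, did not share these values. MT-CO1, the subunit with the oxygen-binding site, had 1296460, 964691 and 932508 in Control and 1171410, 688113 and 606844 in Sox8OE. Here Sox8OE replicates 2 and 3 were the libraries below all Controls, at 0.65 and 0.57 times the Control mean. COX3 had 631936, 540591 and 468983 against 641284, 467498 and 397195, and COII, which takes electrons from cytochrome c, had 298410, 236957 and 219280 against 307016, 397262 and 270210. The log2 fold changes were -0.37 ± 0.37 for MT-CO1, -0.12 ± 0.33 for COX3 and 0.37 ± 0.31 for COII (SE), none of them called. The sign of COX3 turned when libraries were scaled by total counts (0.06).

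**Figure D1:**
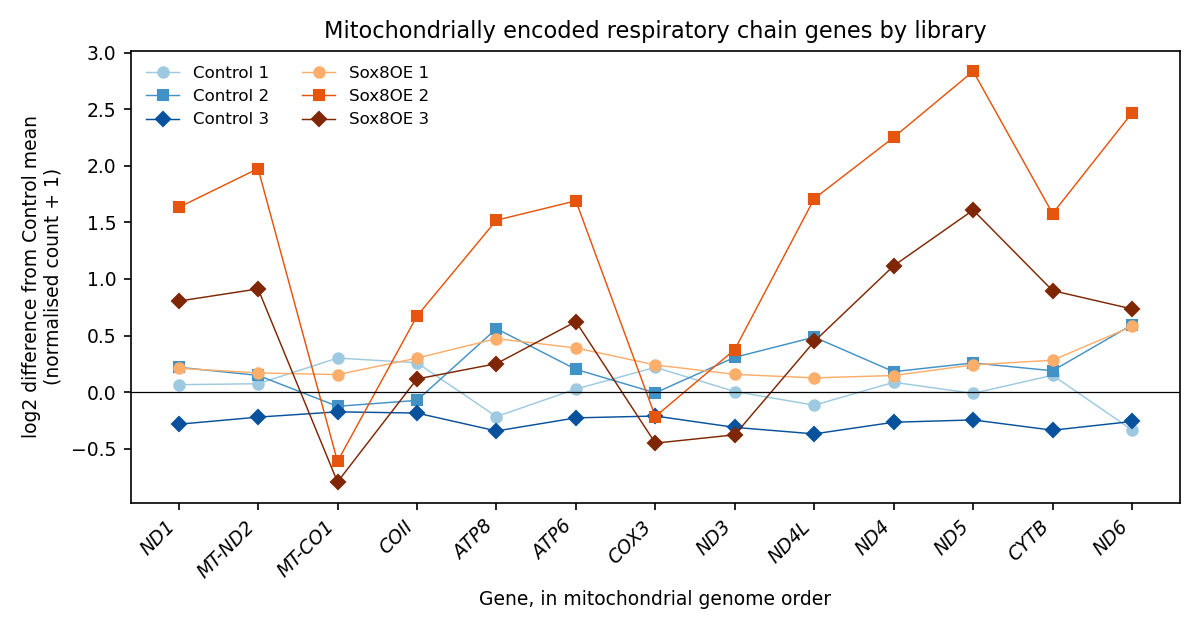
The 13 mitochondrially encoded genes are plotted in the order of the mitochondrial genome, with the log2 difference of each library from the Control mean on the vertical axis; each line is 1 library. Sox8OE replicate 2 and, with smaller differences, replicate 3 lie above the other libraries at ND1, MT-ND2, ND4, ND5 and CYTB. Both lie below them at MT-CO1, replicate 3 the lower, while Sox8OE replicate 1 stays near the Controls.

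Over the 13 mitochondrial genes the median log2 fold change was 0.99, with a range from -0.37 to 1.91, against a median of 0.08 over all genes tested. By library, this set had a median log2 difference of 0.07, 0.20 and -0.26 (Control) and 0.24, 1.63 and 0.62 (Sox8OE), each against the mean of the Controls. The median was thus raised mainly in Sox8OE replicates 2 and 3. Without Sox8OE replicate 2 it was 0.49, and in a fit of Sox8OE replicate 1 alone against the Controls, added after the data were seen, it was 0.24.

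The sum of the mitochondrial messengers depended on the scale, and their makeup differed between libraries. The 13 genes took 6.95%, 6.25% and 5.68% of all counts in Control and 7.20%, 10.3% and 7.55% in Sox8OE (6.29 ± 0.64 and 8.36 ± 1.73, SD, n = 3), so on this scale each Sox8OE library was above each Control library. As sums of normalised counts, they had 2717906, 2286095 and 2009629 in Control and 2683524, 3257632 and 2137047 in Sox8OE, and the groups overlapped. Of the counts in these 13 genes, the complex I genes held 9.73%, 12.9% and 10.6% in Control and 10.8%, 31.9% and 23.5% in Sox8OE. The complex IV genes held 81.9%, 76.2% and 80.7% against 79.0%, 47.7% and 59.6%. The complex III share was 4.07%, 4.97% and 3.93% against 4.52%, 9.14% and 8.69%, and that of complex V 4.27%, 5.91% and 4.87% against 5.65%, 11.3% and 8.17%. In Sox8OE replicates 2 and 3 the shares of complexes I, III and V were thus above every other library, and that of complex IV below. Sox8OE replicate 1 was inside the Control range on all of these shares. Within complex I, the ND3 share did not rise, with 0.40%, 0.58% and 0.43% in Control and 0.44%, 0.43% and 0.39% in Sox8OE.

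Ratios between single genes differed between libraries too. For each 100 counts of MT-CO1 there were 2.24, 3.63 and 2.65 counts of ND5 in Control and 2.96, 30.4 and 14.7 in Sox8OE. This ratio does not depend on library scaling, and again only Sox8OE replicates 2 and 3 left the Control range. COII, like MT-CO1 a complex IV gene, stood at 23.0, 24.6 and 23.5 for each 100 counts of MT-CO1 in Control. In Sox8OE it stood at 26.2, 57.7 and 44.5, so here replicate 1 was above the Control range as well. The COII share of the counts in the 13 genes was 11.0%, 10.4% and 10.9% in Control. It was 11.4%, 12.2% and 12.6% in Sox8OE, so the lower complex IV share did not extend to COII. Counts were from amplified libraries without molecular identifiers, and in bulk samples fewer cells of a type and less RNA per cell cannot be told apart.

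**Figure D2:**
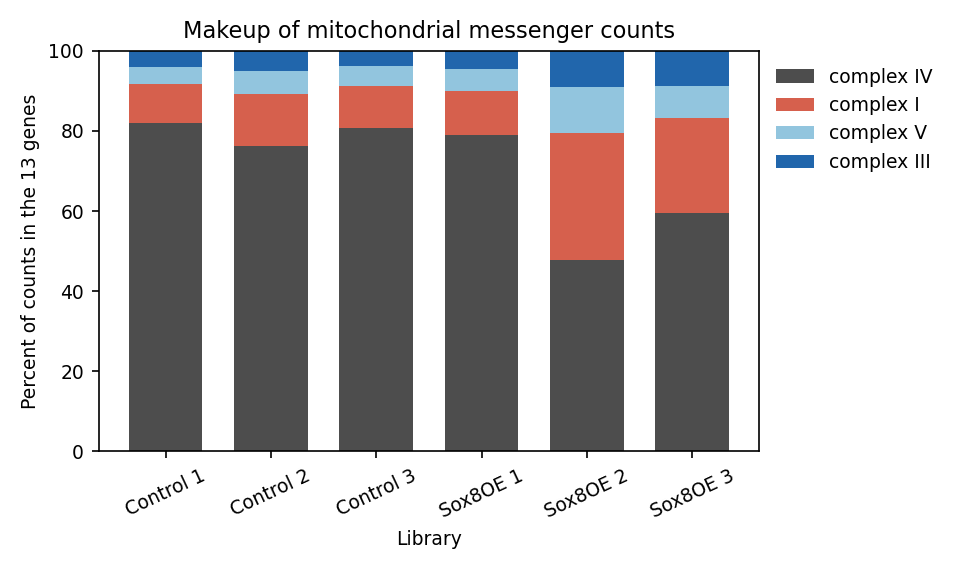
Bars show, for each of the 6 libraries, the percent of counts in the 13 mitochondrially encoded genes that fell on the genes of complexes IV, I, V and III. Complex IV genes made up 76.2% to 81.9% in Control and 79.0% in Sox8OE replicate 1, but 47.7% and 59.6% in Sox8OE replicates 2 and 3.

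Turning to the nuclear genes, ATP5F1B was the 1 of 74 that was called. It had normalised counts of 9638, 16385 and 9889 in Control and 12230, 57563 and 41044 in Sox8OE. Sox8OE replicate 1 lay inside the Control range, and replicates 2 and 3 were 4.81 and 3.43 times the Control mean. The means were 11970 ± 3825 and 36946 ± 22943 (SD, n = 3), a log2 fold change of 1.63 (SE 0.53, DESeq2 adjusted p 0.046). The call was lost without Control replicate 1, Control replicate 3, Sox8OE replicate 2 or Sox8OE replicate 3 (DESeq2 adjusted p of 0.25, 0.23, 0.33 and 0.18) and with TMM factors (0.057). In these fits 1.57%, 1.73%, 1.92%, 1.97% and 4.76% of all genes tested were called, beside 5.24% in the main fit.

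The F1 head of ATP synthase, in which alpha and beta subunits alternate around the gamma shaft, had members with opposite values in the same libraries. ATP5A1Z, the Z chromosome copy of the alpha subunit gene, had 77172, 67585 and 66615 in Control and 66121, 22087 and 23092 in Sox8OE, so all Sox8OE libraries were below all Controls, replicate 1 by little. ATP5F1C, the gamma subunit gene, had 61755, 46240 and 51524 against 54166, 9077 and 14878. ATP5F1D, the delta subunit gene of the same head, had 4827, 7751 and 5357 against 6383, 10597 and 7749. ATP5F1C and ATP5F1D were singled out after their values were seen. Log2 fold changes were -0.93 ± 0.47 for ATP5A1Z, -1.03 ± 0.59 for ATP5F1C and 0.46 ± 0.36 for ATP5F1D (SE), and none was called. With the replicate block, ATP5A1Z (-1.13, DESeq2 adjusted p 0.011) and ATP5F1C (-1.46, 0.0032) were called lower.

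For each 100 counts of ATP5A1Z there were 12.5, 24.2 and 14.8 counts of ATP5F1B in Control and 18.5, 261 and 178 in Sox8OE. The alpha and beta subunits are present in equal number in the enzyme, whereas the ratio of their messenger counts differed by over an order of magnitude between libraries of this series. RefSeq names ATP5A1Z as ATP5F1AZ, and reads from a near-identical W chromosome copy could be placed here, so its count is uncertain.

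The subunits of the Fo part and the stalk differed in direction too. ATP5MC1 and ATP5MC3 encode the same membrane ring protein with different import signals, as known from mammals. ATP5MC1 had 40280, 39363 and 35885 in Control and 41424, 17826 and 18822 in Sox8OE, and ATP5MC3 had 30378, 33108 and 26811 against 27767, 11399 and 13826. In both genes Sox8OE replicates 2 and 3 were below all Controls and replicate 1 was not. ATP5ME, the subunit e gene, had 3176, 4681 and 3296 against 4196, 8943 and 5068. The log2 fold changes were -0.57 ± 0.41, -0.77 ± 0.41 and 0.71 ± 0.40 (SE), with DESeq2 adjusted p of 0.394, 0.247 and 0.271. Of these, ATP5MC3 was called lower with the replicate block (-0.88, adjusted p 0.049). Over the 13 nuclear genes of ATP synthase the median was -0.07.

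Succinate dehydrogenase, which also serves the citric acid cycle, had the lowest median of the complexes, -0.84 over 4 genes. SDHA, its flavoprotein, had 14447, 8618 and 11915 in Control and 9083, 2223 and 3156 in Sox8OE, with means of 11660 ± 2923 and 4821 ± 3720 (SD, n = 3). SDHB, the iron-sulfur subunit, had 15548, 13564 and 13495 against 13549, 4064 and 5281. SDHD, a membrane anchor, had 26337, 21719 and 24153 against 26540, 6662 and 8758. In all 3 genes Sox8OE replicates 2 and 3 were below every Control library, and replicate 1 was within the Control range or, at SDHD, just above it.

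SDHC, the other membrane anchor, had no low value in these libraries, with 648, 1469 and 954 in Control and 1063, 1833 and 1248 in Sox8OE. SDHC and SDHD were singled out after their values were seen. The log2 fold changes were -1.27 ± 0.53 for SDHA, -0.90 ± 0.47 for SDHB, -0.78 ± 0.51 for SDHD and 0.43 ± 0.42 for SDHC (SE), with DESeq2 adjusted p of 0.134, 0.246, 0.350 and 0.540. With the replicate block SDHA, SDHB and SDHD were called lower (-1.52, -1.10 and -1.06, adjusted p 3.7e-04, 0.015 and 0.026). None of these 3 was called with the edgeR quasi-likelihood test, limma voom or DESeq2 on total counts. For SDHA the adjusted p in those fits was 0.28, 0.25 and 0.10. Taken over the 4 genes, the median log2 difference was 0.03 for Sox8OE replicate 1, and -1.83 and -1.44 for replicates 2 and 3.

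**Figure D3:**
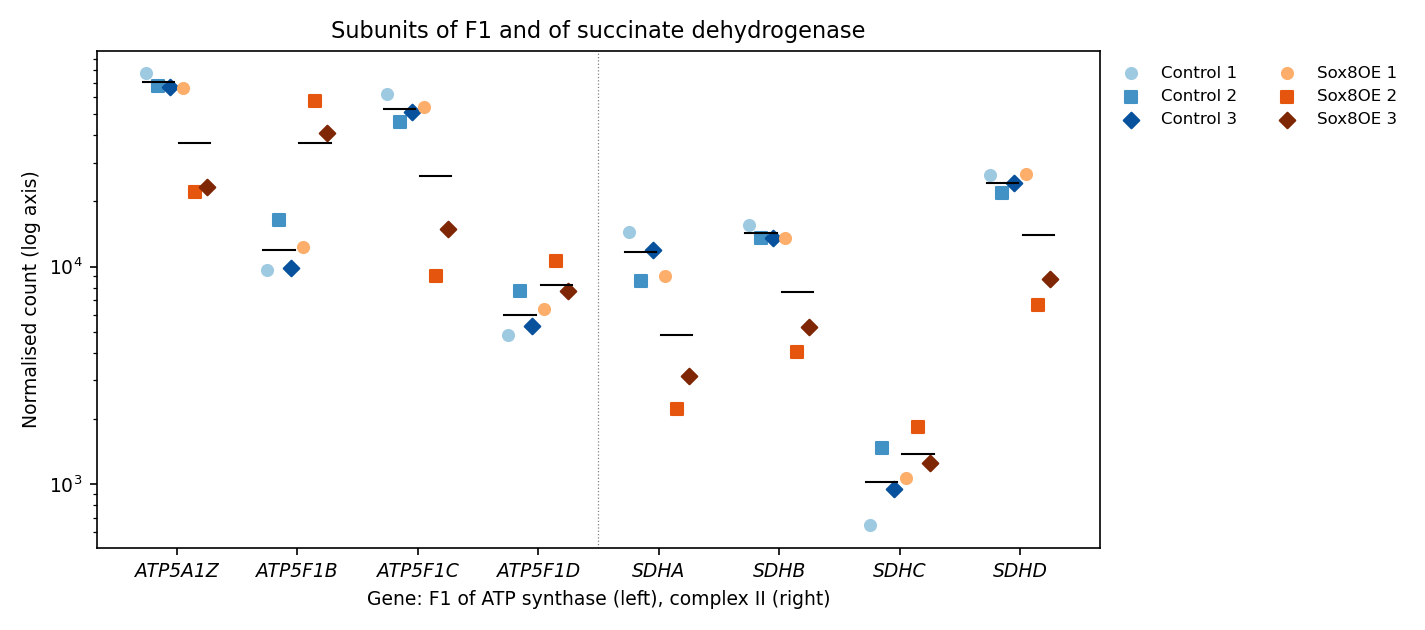
Points show the normalised count of each library on a log axis, and black lines show the group means. The genes are the 4 F1 subunit genes of ATP synthase found among the members and the 4 genes of complex II. Sox8OE replicates 2 and 3 lie below the Controls at ATP5A1Z, ATP5F1C, SDHA, SDHB and SDHD and above them at ATP5F1B, while Sox8OE replicate 1 stays near the Controls at all 8 genes.

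Among the nuclear genes of complex I none was called without the replicate block, and 3 were called lower with it. The median over 39 was 0.10, with 21 fold changes above 0 and 18 below. NDUFV1, which binds NADH, had 11442, 18349 and 12012 in Control and 17449, 13231 and 14236 in Sox8OE, all Sox8OE values being inside the Control range. NDUFS1, the largest iron-sulfur subunit, had 9742, 10757 and 9438 against 12428, 4142 and 4645, so Sox8OE replicate 1 was the highest and replicates 2 and 3 the lowest of the 6 libraries. NDUFA6, an accessory subunit, had 3106, 4033 and 2902 against 3947, 5797 and 4388. Log2 fold changes were 0.10 ± 0.33, -0.50 ± 0.46 and 0.49 ± 0.32 (SE), with DESeq2 adjusted p of 0.872, 0.519 and 0.348.

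The assembly factors of complex I spanned the widest range of its nuclear genes. NDUFAF6 had 165, 275 and 158 in Control and 154, 457 and 490 in Sox8OE, which is 0.88 ± 0.53 as a log2 fold change (SE, DESeq2 adjusted p 0.303). NDUFAF1, which helps to build the membrane arm, had 15395, 12861 and 13978 against 14713, 3023 and 4721, a value of -0.91 ± 0.54 on the same scale (adjusted p 0.302). With the replicate block, NDUFAF1 was called lower (-1.25, DESeq2 adjusted p 0.011). Sox8OE replicates 2 and 3 were above the Control range at the first gene and below it at the second. NDUFS4, an accessory subunit needed for a stable NADH-oxidising module, had 9124, 9185 and 7493 against 6858, 4924 and 6249. NDUFAF1 and NDUFS4 were singled out after their values were seen. NDUFS4 and ATP5A1Z were the 2 of 87 members with all Sox8OE libraries below all Controls, while 9.09% of all genes tested had that order.

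Of the 8 nuclear genes of complex III none was called, and 6 had fold changes below 0 (median -0.36). UQCRC1, a core protein of the matrix side, had 29944, 26770 and 25589 in Control and 27475, 11262 and 12966 in Sox8OE. UQCRFS1, the Rieske iron-sulfur protein, had 24985, 23764 and 20309 against 22357, 8739 and 11682. At both genes Sox8OE replicate 1 lay within the Control range and replicates 2 and 3 lay below it. The log2 fold changes were -0.67 ± 0.41 and -0.69 ± 0.41 (SE), with DESeq2 adjusted p of 0.314 and 0.300. Over the 8 genes, Sox8OE replicate 2 was above all Controls at 2 and below all at 5, and replicate 3 was above at none and below at 6.

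The nuclear subunits of complex IV surround the mitochondrial core, and most varied little between groups. The median over 10 genes was 0.14, and Sox8OE replicate 1 was inside the Control range at all 10, replicate 3 at 8 and replicate 2 at 3. COX5A had 7300, 9994 and 6730 in Control and 7305, 7898 and 6893 in Sox8OE, COX6A1 had 19911, 27833 and 18497 against 21238, 31521 and 27044, and NDUFA4 had 12630, 16634 and 11752 against 15447, 17628 and 14884. COX7A2 had 7806, 10120 and 6930 against 8305, 13953 and 9194. The 4 log2 fold changes were -0.12 ± 0.30, 0.27 ± 0.33, 0.23 ± 0.30 and 0.34 ± 0.35 (SE), and no DESeq2 adjusted p was under 0.5.

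The row named COX4I2 had 20051, 21262 and 17248 in Control and 20192, 17189 and 17775 in Sox8OE. RefSeq gives COX4I2 as a synonym of COX4I1 in chicken, so this row may hold the widely expressed isoform rather than the one of lung in mammals. COX7A2L, which in mammals joins complexes III and IV into supercomplexes, stood apart from the other complex IV genes. It had 5395, 4106 and 5174 against 4417, 1670 and 1691 (log2 fold change -0.92 ± 0.45, SE, DESeq2 adjusted p 0.215), and with the replicate block it was called lower (-1.07, adjusted p 0.016). Sox8OE replicates 2 and 3 were below all other libraries there and differed little from each other.

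Across all 74 nuclear genes the fold changes were balanced, 36 above and 38 below 0, with a median of -0.02. Their share of all counts was 2.27%, 2.61% and 2.28% in Control and 2.40%, 2.35% and 2.33% in Sox8OE, so on this scale the Sox8OE libraries lay inside the Control range. As sums of normalised counts they had 889494, 953354 and 808027 in Control and 894986, 739767 and 660536 in Sox8OE, where replicates 2 and 3 were below every Control. Whether the nuclear total was even therefore depended on the scale. Sox8OE replicate 2 was above all Controls at 31 nuclear genes and below all at 31. Replicate 3 was above at 11 and below at 34, and replicate 1 at 6 and 5. Over all genes tested, the same library counts were 41.0% above and 37.8% below for replicate 2 and 40.0% above and 35.4% below for replicate 3, against 41.9% each way and 14.9% and 45.9% of the nuclear members. For replicate 1 they were 24.0% above and 25.7% below over all genes tested, against 8.11% and 6.76% of the nuclear members. The split in replicate 2 was thus near that of all genes.

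**Figure D4:**
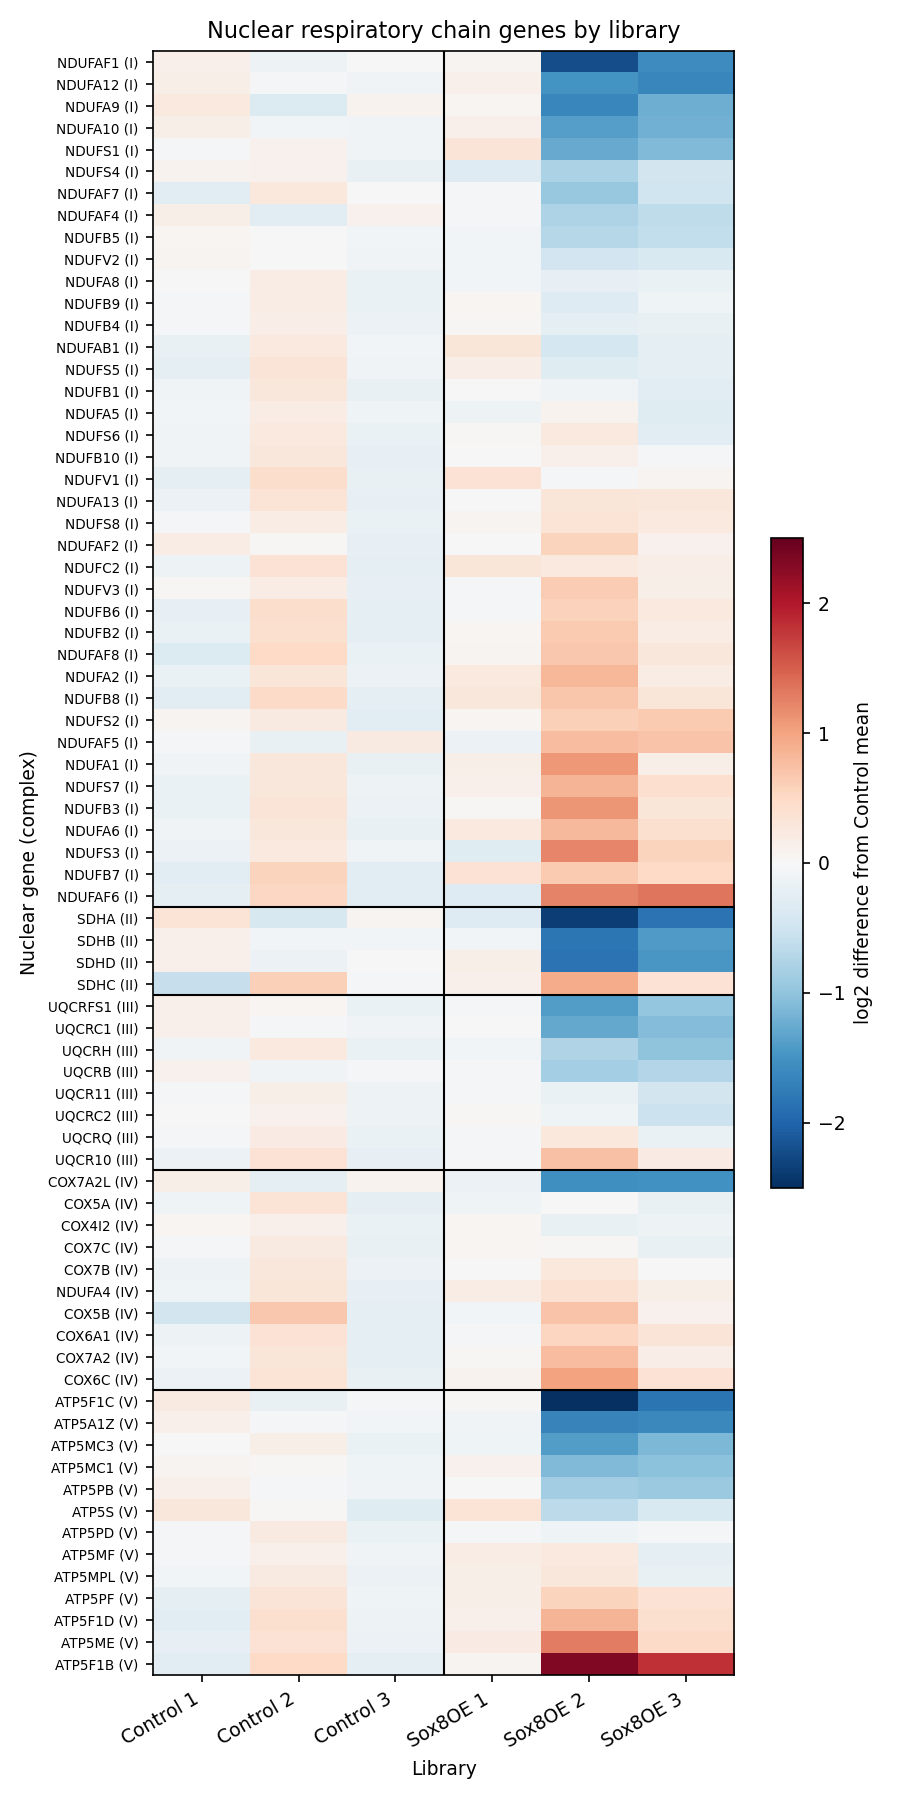
Each row is 1 of the 74 nuclear genes, grouped by complex and ordered by the mean difference in Sox8OE, and each column is 1 library; colour shows the log2 difference from the Control mean, red above and blue below. Sox8OE replicates 2 and 3 carry the blue end of each complex. The red end lies mainly in replicate 2, and replicate 3 was above all Controls at no gene of complexes II and III. The column of Sox8OE replicate 1 is as pale as the Control columns.

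The number of calls depended on which of the Sox8OE libraries entered the fit. Without Sox8OE replicate 1, DESeq2 called 41 of the 87 genes (47.1%), beside 39.4% of all genes tested in that fit. Of these 18 were higher, 9 of each genome, and 23 were lower, 22 of them nuclear. In that fit 17.8% of all genes tested were called higher and 21.6% lower. The lower nuclear genes included ATP5F1C (log2 fold change -2.16), SDHA (-2.13), NDUFAF1 (-1.88), SDHD (-1.66), ATP5A1Z (-1.65) and SDHB (-1.62). MT-CO1 was the 1 mitochondrial gene called lower (-0.73), while ND1, MT-ND2, ND4, ND4L, ND5, ND6, CYTB, ATP6 and ATP8 were called higher. By complex, the called nuclear genes were 6 higher and 9 lower in complex I, 3 lower in complex II, 4 lower in complex III, 1 higher and 1 lower in complex IV, and 2 higher and 5 lower in ATP synthase. That fit rests on 2 Sox8OE libraries. Its larger number of calls is no separate support, since the omitted library was the one nearest the Controls at these genes. In the fit of Sox8OE replicate 1 alone against the Controls no member was called, beside 2.34% of all genes tested, and none had an unadjusted p under 0.05, beside 10.1%.

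Samples of the same replicate number correlated weakly across the groups, and no label states that they were paired. With the replicate number as a block, DESeq2 called 19 of the 87 genes (21.8%), of which 9 were higher and 10 lower, beside 8.25% of all genes called higher and 10.3% called lower in that fit. The higher genes were ND1, MT-ND2, ND4, ND5, ND6, CYTB, ATP6, ATP8 and ATP5F1B. The lower genes, all nuclear, were SDHA, SDHB, SDHD, ATP5F1C, ATP5A1Z, ATP5MC3, NDUFAF1, NDUFA9, NDUFA12 and COX7A2L. They are named because they were called in that fit. With the block, the log2 fold change of ND5 was 1.58 and that of ATP5F1B 1.41, with DESeq2 adjusted p of 0.0018 and 0.0021. The edgeR quasi-likelihood test called none of the 87 genes, with 9 at an unadjusted p under 0.05, and limma voom called none, with 15. Over all genes these tests called 0.276% and 0.222%, and 16.4% and 18.97% had an unadjusted p under 0.05, so few calls were made at any genes.

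**Figure D5:**
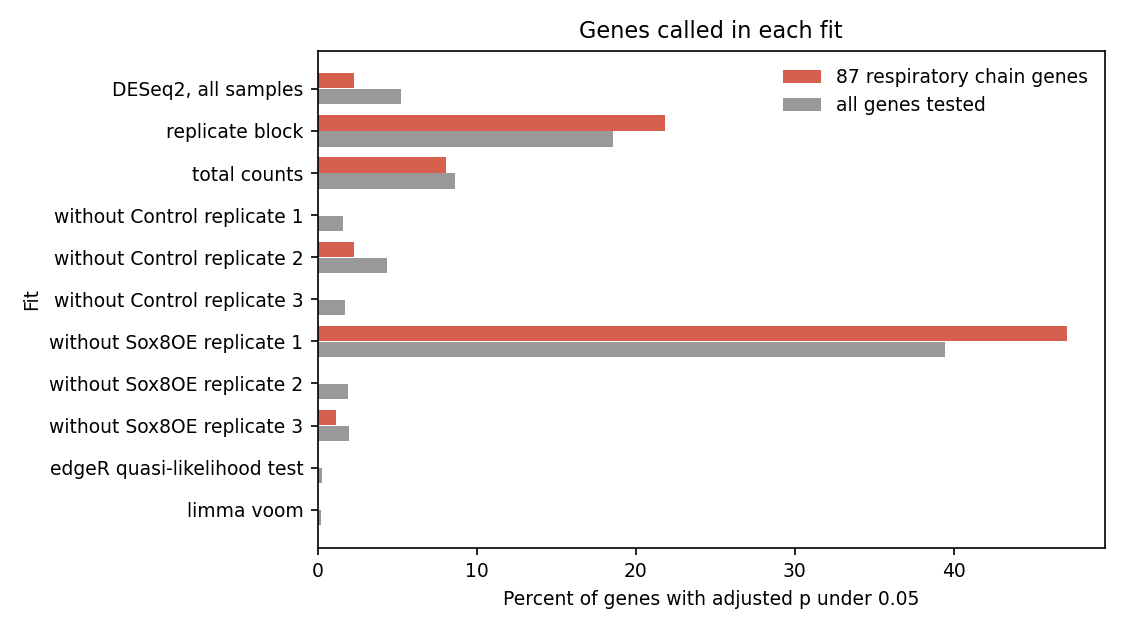
Bars give the percent of the 87 respiratory chain genes and of all genes tested with an adjusted p under 0.05, for the DESeq2 fit of all samples, for other DESeq2 fits, and for edgeR and limma voom. The percents for the respiratory chain follow those of all genes, from 0 in several fits to 47.1% and 39.4% without Sox8OE replicate 1.

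The genes around the respiratory chain were counted from lists of assembly factors, mitochondrial gene expression, carriers and fuel pathways. With all samples, 3.94% of all genes tested were called higher and 1.3% lower. Of 34 assembly factors outside the name families, 2 were called higher and none lower (median -0.21): FOXRED1, which acts on complex I, and SCO2, which brings copper to complex IV. FOXRED1 had normalised counts of 28.7, 73.0 and 29.5 in Control and 107.7, 248 and 245 in Sox8OE, all Sox8OE libraries being above all Controls. Of 33 genes for copying and expressing mitochondrial DNA none was called in either direction (median -0.26), and none of 70 mitochondrial ribosomal protein genes was (median -0.20). Those lists include the factors that transcribe and process the mitochondrial messengers. Without Sox8OE replicate 1, where 17.8% of all genes were called higher and 21.6% lower, the calls were 5 higher and 14 lower among the assembly factors. They were 6 and 13 for mitochondrial DNA copying and expression, and 9 and 26 for the mitochondrial ribosomal proteins.

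Among 15 transcription regulators of respiratory genes 1 was called higher, YY1, a zinc finger factor, with 527, 559 and 473 in Control and 575, 2337 and 1717 in Sox8OE. Among 22 mobile carriers and exchangers 1 was called higher, UCP3, a carrier of the inner membrane, which had at most 23 raw counts in any Control library. None of 20 citric acid cycle genes found (19 tested) and none of 16 mitochondrial chaperones and proteases was called, with medians of -0.41 and -0.60. Among 25 glycolysis genes PFKM, a phosphofructokinase gene, was higher and LDHA, a lactate dehydrogenase gene, was lower. LDHA had 28613, 23124 and 27380 in Control and 15832, 3331 and 3253 in Sox8OE, so all Sox8OE libraries were below all Controls and replicates 2 and 3 were the lowest. The summed glycolysis counts were 1169100, 1248520 and 1074770 in Control and 1059840, 398747 and 440866 in Sox8OE. Without Sox8OE replicate 1, where 17.8% of all genes were called higher and 21.6% lower, the regulators had 5 higher and 2 lower. The calls were 4 and 15 among the carriers, and 1 and 12 in the citric acid cycle. They were 0 and 9 among the chaperones and proteases and 3 and 14 in glycolysis. The glycolysis sum was lowest in the 2 libraries in which SDHA was lowest.

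Other features also differed between libraries, not all in the same libraries as the respiratory chain genes, and their part in the results was not tested. With all samples, 3.94% of all genes tested were called higher and 1.3% lower. Cytosolic ribosomal protein genes took 5.32%, 7.32% and 5.39% of counts in Control and 5.61%, 11.5% and 8.79% in Sox8OE. None of these 71 genes was called with all samples, with a median log2 fold change of 0.39, and 32 were called higher and 4 lower without Sox8OE replicate 1. In that fit 17.8% of all genes tested were called higher and 21.6% lower. Of 15 surface ectoderm markers found (14 tested), which include the label's own cell type, 5 were called higher and none was at 0. Their summed normalised counts were 32979 to 39304 in Control and 59367, 59868 and 49708 in Sox8OE, so replicate 1 was raised as well. Of 13 forebrain markers (12 tested), 5 were called lower and BARHL2 was at 0 in all libraries. The sums were 8174, 10614 and 7860 in Control and 3802, 9825 and 6468 in Sox8OE, lowest in replicate 1. Of 10 neural crest markers 2 were called higher, LMO4 and SOX10, and none was at 0. The paper also counts Sox10 as an otic factor, so SOX10 does not mark neural crest alone. Among the genes down-regulated at its thresholds, the paper reported transcripts typical of forebrain as well as of neural crest. The sums of the neural crest markers were 13659, 18109 and 13936 in Control and 16504, 33100 and 22110 in Sox8OE, with the highest in Sox8OE replicate 2. Without Sox8OE replicate 1, the calls were 9 higher and 1 lower for surface ectoderm, 2 and 5 for forebrain, and 4 and 1 for neural crest.

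The remaining marker lists had sums that overlapped, apart from the neuron markers, whose sum was lower in every Sox8OE library than in every Control. Of 15 head mesenchyme and vessel markers 1 was higher (MEOX1) and 2 were lower, none was at 0, and the sums were 3772 to 5097 and 2952 to 6418. The lower genes were ALX1 and TWIST1, below all Controls in every Sox8OE library although the sums overlapped. ALX1 had 1165, 1013 and 712 in Control and 76.7, 7.69 and 48.4 in Sox8OE. TWIST1 had 126, 238 and 162 against 13.8, 18.7 and 16.1. Of 11 neuron markers (8 tested) 1 was higher, POU4F1 was at 0 in all libraries, and the sums were 13833 to 15938 and 10624 to 12903. The called neuron gene was NEFL, with 250, 461 and 250 in Control and 807, 997 and 1020 in Sox8OE, opposite to the sum. Of 7 blood markers found (4 tested) and 13 heart and muscle markers found (11 tested) none was called. Blood sums were 2642 to 3777 and 1557 to 2870, with HBE1 and HBBA at 0 in all libraries, and heart and muscle sums were 4379 to 4944 and 4086 to 4415. The 1 gene found of the W-linked list, SPIN1W, was not called, so that list gave little on the mix of male and female embryos. Without Sox8OE replicate 1, the calls were 3 higher and 2 lower for head mesenchyme and vessel, 1 and 1 for neuron, 0 and 1 for blood, and 2 and 1 for heart and muscle. Over all genes tested, 17.8% were higher and 21.6% lower in that fit, and 3.94% and 1.3% with all samples.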

How the data were processed

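Reads of 75 bases, paired, came from 6 samples of sorted cells. The series text gives 4000 cells per sample and the study's methods another number. The authors deposited raw read counts per Ensembl gene, not normalised, made with Trim Galore and featureCounts (submitters' notes) after STAR alignment to GalGal6 in the nf-core RNA-seq pipeline. The annotation release, strand setting and treatment of reads shared between genes are not given in the sources used here, so counts of overlapping genes and near-identical copies are uncertain. The libraries were amplified without molecular identifiers.

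Counts were tested with DESeq2 1.42.0 in R 4.3.3 with default settings, as in the study's methods. Group was the only term, p-values were Benjamini-Hochberg adjusted over all genes, and fold changes were not shrunken. Differences per library are of log2(normalised count + 1). Of 24356 genes, 2945 had no count, 5379 with counts had no adjusted p and 16032 were tested. Alternatives were edgeR 4.0.16, limma voom 3.58.1, TMM factors, total counts with and without mitochondrial and ribosomal protein genes, a filter of at least 10 counts in 3 samples, no outlier filter, a replicate block and leaving out each sample. The tests were checked on simulated counts with a single fixed spread for all genes and libraries. The simulation did not include the larger spread of the Sox8OE libraries, so it does not show how the tests behave under it.

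Groups and replicate numbers came from sample titles. Deviations from the group means correlated at 0.149, 0.123 and 0.105 between samples of the same number and at -0.140 to 0.026 otherwise. All 3 passed 0.1, so a replicate block was run as an alternative to the main fit. Because the block was taken up for positive correlations in these same data, more calls with it are in part built into the choice. These correlations are small, and no label states that samples of the same number were paired. Deviations from a group mean sum to 0 within the group, so positive values for same numbers go with negative ones elsewhere. Whether the samples were paired is thus not known.

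The members, lists and tests were chosen with earlier results of these data known. Named genes were all mitochondrial members, nuclear members with an adjusted p under 0.05 (or the 4 of smallest p in each direction), defining subunits of each complex and tissue isoforms. Of those, 11 names had no row under that name. RefSeq (GRCg7b) was used for names and gene order only: 70 members matched by symbol, 9 by synonym and 8 not at all. Lists of assembly factors, mitochondrial expression, regulators, carriers, the citric acid cycle, glycolysis, chaperones, W-linked genes, ribosomal proteins and cell type markers were counted without a test of the list.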

Additional observations from a re-analysis of the deposited data

How the results depend on the processing

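The counts of called genes depended on the test, the scaling and single libraries. Mitochondrial genes called higher numbered 1 in DESeq2, 0 with edgeR, limma voom or without Sox8OE replicates 2 and 3 (an alternative added after the data were seen, in which the lone sample is assumed to vary like the others), 6 with total counts, 7 with total counts without mitochondrial genes and also without ribosomal protein genes, 8 with the replicate block, and 0 to 9 when each sample was left out. Mitochondrial genes called lower numbered 0 to 1 when each sample was left out. Nuclear genes called higher numbered 1, and 0 with edgeR, limma voom, TMM factors or without Sox8OE replicates 2 and 3, and 0 to 9 when each sample was left out. Nuclear genes called lower numbered 0, and 10 with the replicate block and 0 to 22 when each sample was left out. The share of all genes called moved too: it was 5.24% in DESeq2, 0.276% with edgeR, 0.222% with limma voom, 4.76% with TMM factors, 8.64%, 9.13% and 10.5% with the total count scalings, 18.6% with the replicate block and 2.34% without Sox8OE replicates 2 and 3. The members called were 2.30%, 0%, 0%, 1.15%, 8.05%, 9.20%, 9.20%, 21.8% and 0%. Leaving out Control replicate 1, 2 or 3 called 1.57%, 4.37% and 1.73% of all genes tested and 0%, 2.30% and 0% of the members. Leaving out Sox8OE replicate 1, 2 or 3 called 39.4%, 1.92% and 1.97% of all genes and 47.1%, 0% and 1.15% of the members. Members past both thresholds numbered 2, with 0 for edgeR and limma voom, 1 for TMM factors, and 4, 4 and 5 for the total count scalings. They numbered 0 to 13 when each sample was left out. The share of all genes past both thresholds is given for the main fit only, at 4.28%.

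Total counts moved the median of all genes tested from 0.08 to 0.29, 0.33 and 0.38 and the share of calls that were higher from 75.1% to 85.3%, 86.5% and 88.1%. Relative to that median, the mitochondrial median was 0.91 in the main scaling and 0.93, 0.93 and 0.95 in these, and the nuclear median was -0.10 against -0.11, -0.12 and -0.12. Unadjusted for the shift, the nuclear median was 0.18, 0.21 and 0.27. The mitochondrial median was 0.24 without Sox8OE replicates 2 and 3. The mean nuclear share of counts in Sox8OE was 2.58% without mitochondrial genes in the total and 2.59% without ribosomal protein genes, beside 2.36% of all counts. In Control it was 2.55% and 2.54%, beside 2.39%, so the smaller totals raised the share in both groups.

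Of the 32 genes named by the rule, 21 kept their direction in every alternative. Signs turned with the 3 total count scalings for COX3 (0.060, 0.091 and 0.14), COX5A (0.086, 0.12 and 0.17) and COX4I2 (0.12, 0.15 and 0.20). They turned without Sox8OE replicates 2 and 3 for MT-CO1 (0.16), COX3 (0.25), NDUFAF6 (-0.36), NDUFS1 (0.33), UQCRC1 (0.020), COX4I2 (0.065), COX6A1 (-0.042) and ATP5MC1 (0.12). Leaving out each sample gave -0.12 to 0.24 for ND3, -0.35 to 0.018 for COX3, -0.032 to 0.34 for NDUFV1 and -0.23 to 0.057 for COX5A. No other gene named by the rule changed direction in the alternatives run, and the replicate block changed no call of a member beyond those given in the report. The cause of these differences was not tested. No member was at the floor of 3 counts, so depth did not limit detection.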
